A study of Mus musculus with 14 samples.

Results

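The genes described here are 10 components of the Notch pathway, measured as RNA in isolated mouse colon epithelium. They were taken by symbol from a table of gene counts: the receptors Notch1 and Notch2, the ligands Dll1, Dll4 and Jag1, the glycosyltransferase Lfng, the DNA-binding protein Rbpj, and the targets Hes1, Hey1 and Nrarp. All 10 were found among the 37680 genes of the table. Of these 10, 9 had at least 10 counts in at least 3 libraries and were tested with the other genes that passed, 15127 in all. Hey1 did not pass.

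The study asked how loss of Smad4 from the intestinal epithelium alters the response of the colon to dextran sulphate sodium (DSS), a polysaccharide that injures the colonic lining when it is drunk. Epithelium was lifted off the whole colon of adult mice with EDTA, and polyadenylated RNA was sequenced in 14 libraries. Wild-type (WT) mice were untreated and drank water (4 libraries) or received 2.5% DSS in the drinking water for 3 d (3 libraries), and Smad4 KO mice had the same regimens (4 and 3 libraries). The figure legends of the study count 3 replicates for Smad4 KO on water, and they do not say which of the 4 libraries these were. In the Smad4 KO mice, floxed Smad4 was deleted after tamoxifen injection by a Cre recombinase that the Villin promoter drives, so the deletion was directed to intestinal epithelial cells. The methods describe the Cre transgene in mutants and controls alike, and the labels do not give Cre or tamoxifen status library by library. The labels do not say that each library came from a separate mouse, so the p-values measure the spread between these libraries.

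Notch is a receptor that is read out by direct contact between cells. A ligand of the Delta-like or Jagged type on one cell pulls on the receptor of its neighbour, ADAM proteases and then gamma-secretase cut the receptor, and its intracellular part enters the nucleus and joins Rbpj to switch on genes such as Hes1, Hey1 and Nrarp. In the intestinal crypt, cells with active Notch remain stem cells or become absorptive colonocytes, while Atoh1 directs cells without it to the secretory fate, and Dll1 and Dll4 are the ligands the crypt is known to use. Lfng is a Fringe enzyme, which adds sugars to the receptors and so changes which ligands they respond to.

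Rbpj binds DNA at a short core sequence, TGGGAA. The promoters of Hes1, Lfng and Hey1 are shown because, of the 10 genes, these 3 held that core, read on either strand as TGGGAA or TTCCCA (in capitals). Each window runs from 250 bases before to 50 bases from the start site, 5′ to 3′ on the strand of the gene, in the mouse build NCBIM37 (mm9).
Hes1, chr16:30065176-30065475, plus strand: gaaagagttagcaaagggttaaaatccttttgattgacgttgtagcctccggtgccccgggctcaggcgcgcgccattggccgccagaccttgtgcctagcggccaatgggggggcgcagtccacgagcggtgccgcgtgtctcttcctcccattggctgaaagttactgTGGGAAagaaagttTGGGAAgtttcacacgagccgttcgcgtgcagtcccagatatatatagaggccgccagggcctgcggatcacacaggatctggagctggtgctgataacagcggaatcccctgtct
Lfng, chr5:141083045-141083344, plus strand: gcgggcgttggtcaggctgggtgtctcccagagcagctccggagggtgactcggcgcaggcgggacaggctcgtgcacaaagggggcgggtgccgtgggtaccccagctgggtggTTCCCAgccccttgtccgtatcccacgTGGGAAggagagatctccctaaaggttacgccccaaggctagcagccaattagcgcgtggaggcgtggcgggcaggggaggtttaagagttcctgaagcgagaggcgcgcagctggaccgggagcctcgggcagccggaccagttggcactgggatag
Hey1, chr3:8666990-8667289, minus strand: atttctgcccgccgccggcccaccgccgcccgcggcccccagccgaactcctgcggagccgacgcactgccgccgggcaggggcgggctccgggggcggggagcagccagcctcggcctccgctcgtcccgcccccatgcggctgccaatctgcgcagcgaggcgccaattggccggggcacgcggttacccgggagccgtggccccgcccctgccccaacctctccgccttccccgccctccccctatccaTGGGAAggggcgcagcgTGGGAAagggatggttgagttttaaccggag

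Each of these 3 windows held the core 2 times. In Hes1 both copies were on the strand of the gene, and their leftmost bases were at -80 and -66 from the start site. In Lfng the copy at -135 was on the opposite strand and the copy at -108 on that of the gene. Hey1 had its copies at 3 and 20, inside the transcribed part. Among 22375 gene promoters of the same length, 24% held the core at least once and 3.39% at least 2 times, so a single match is common. The longer form GTGGGAA, which contains the core, stood in 5.9% of all promoters and in the same 3 windows. The Hes-type letters CACNAG were in 41.6% of all promoters and in 6 of the 10 windows. These are matches of letters and carry no measure of binding.

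The libraries held 12882827 to 26087231 counts. Levels below are CPM, the counts of a gene scaled to a library of 1000000 counts after TMM normalization. Smad4 transcript was 118.5 to 159 in WT water, 170 to 182 in WT DSS and 40.4 to 43.9 in Smad4 KO DSS. It was 35.1 to 46.8 in 3 of the 4 Smad4 KO water libraries. The library labelled Smad4 KO water replicate 1 had 158 CPM, which lies within the range of WT water. Most log2 fold changes of single members that rest on it are therefore given with and without it. Those of Jag1, and the medians and non-overlap counts of the members, are given with it only. In edgeR without it, 0 of 9 members passed in any comparison. Mitochondrial transcripts made up 21.4 to 32.8% of the counts in 3 water libraries (WT water replicates 3 and 4 and Smad4 KO water replicate 4) and 4.05 to 8.23% in the other 11. Epithelial markers (Epcam, Cdh1, Vil1, keratins and Cdx2) summed to 11740 to 18840 CPM per library. Endothelial markers, of interest because endothelium is rich in Dll4 and Notch1, summed to 5.36 to 12.9 CPM, with Tie1, Emcn and Cldn5 at 0 in every library. In such bulk libraries, fewer cells of a type and less RNA per cell cannot be told apart.

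The targets Hes1 and Nrarp were the most abundant of the 10 transcripts, and the receptors were low per kilobase of exon. Per kilobase of exon, the mean over the 14 libraries was 43.6 CPM for Hes1 (range 29.3 to 59.2), above 90.1% of the tested genes, and 21.5 CPM for Nrarp (16.5 to 26.6), above 80.7%. Lfng (6.48), Dll4 (5.82), Rbpj (4.11), Dll1 (3.96) and Jag1 (3.48 CPM per kilobase) formed a middle group. Notch1 followed at 1.71 (0.635 to 2.50) and Notch2 at 0.816 (0.509 to 1.03) CPM per kilobase. The steps from Hes1 to Nrarp, Nrarp to Lfng and Jag1 to Notch1 were present in 14 of 14 libraries, with ranges that did not overlap. The step from Jag1 to Notch1 rests on the exon length, all annotated exons together (5827 bases for Jag1, 14232 for Notch1). In CPM, Notch1 was above Jag1 in some libraries (35.6 against 20.1 in Smad4 KO water replicate 1). In others it was below (12.0 against 21.1 in WT water replicate 4). Within the middle group the ranges overlapped, and Rbpj exceeded Dll1 in only 7 of 14 libraries.

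Hey1 was close to absent. Its raw counts were 0, 3, 0 and 2 in WT water, 3, 11, 0 and 0 in Smad4 KO water, 0, 2 and 3 in WT DSS, and 0, 0 and 2 in Smad4 KO DSS. Only 1 library, Smad4 KO water replicate 2, exceeded 3 counts, so no fold difference is given.

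**Figure D1:**
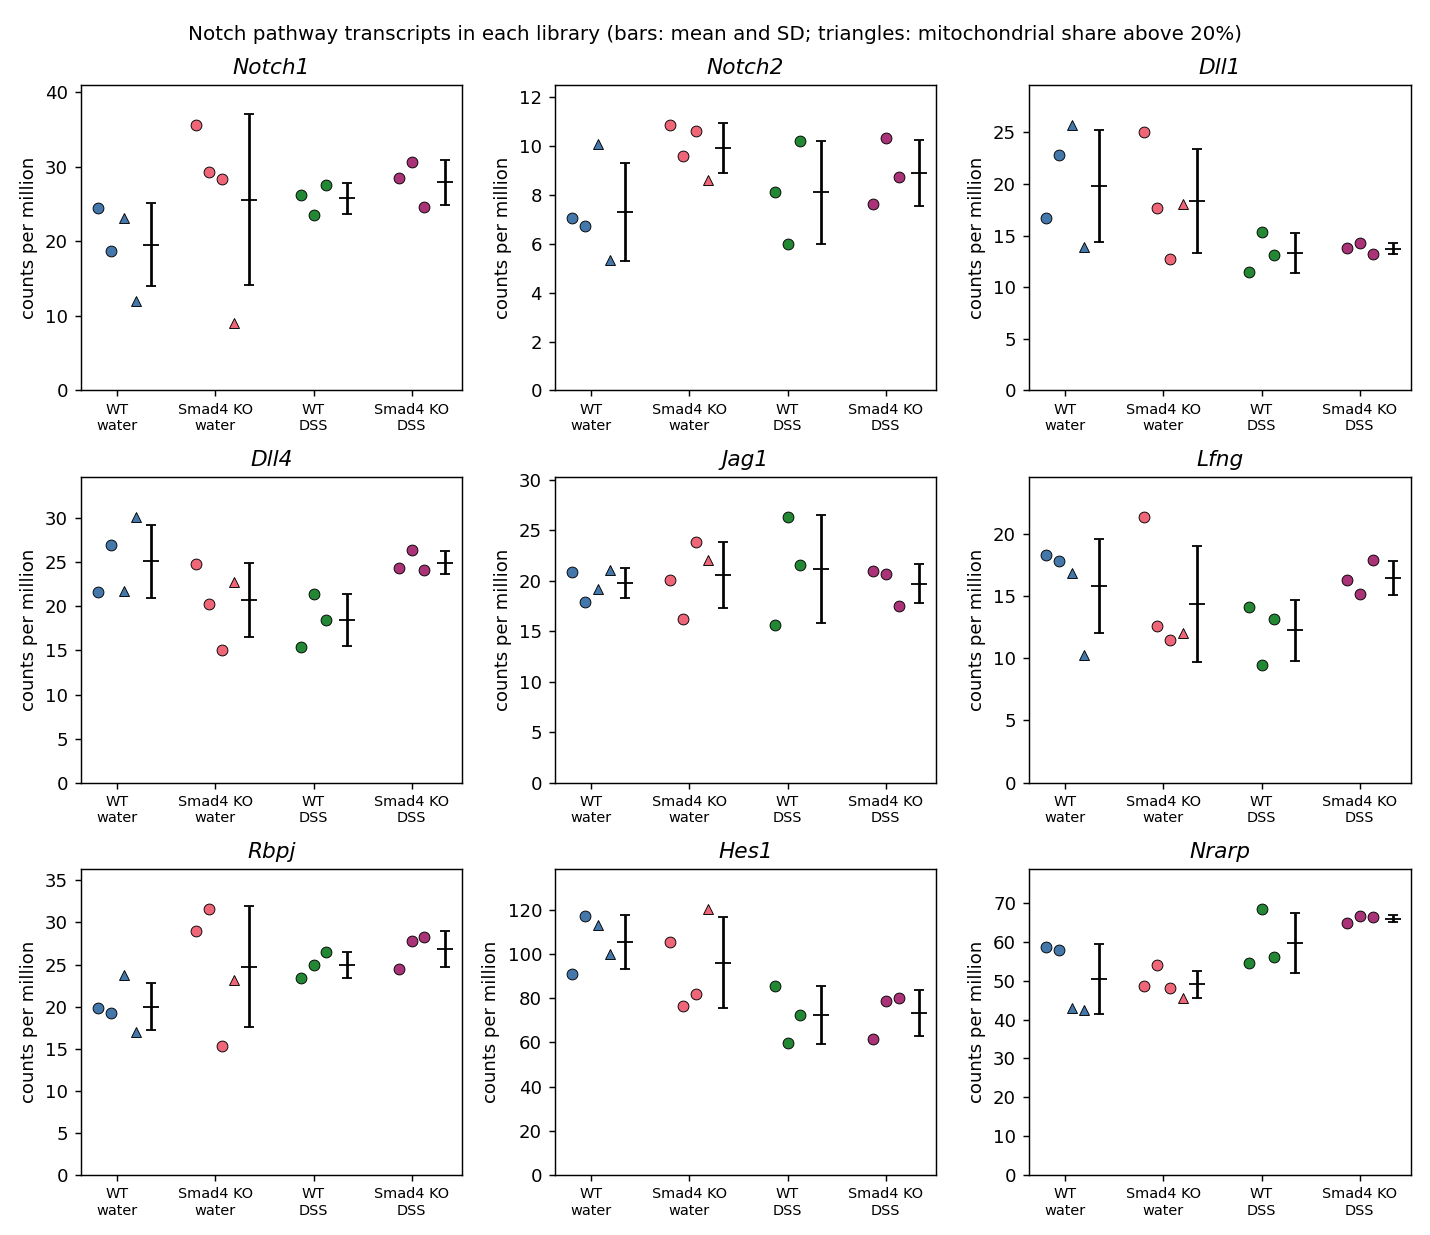
Level of the 9 tested Notch pathway transcripts in each library (points, y axis in CPM) for the 4 groups on the x axis, with the mean and SD of each group beside its points; triangles are the 3 libraries with a mitochondrial share above 20%. Dll4 in Smad4 KO DSS (24.2 to 26.4 CPM) lies above WT DSS (15.4 to 21.4), and Hes1 in WT DSS (59.6 to 85.6) below WT water (91.0 to 118).

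None of the 9 tested members passed the threshold (edgeR, adjusted p below 0.05 over all 15127 tested genes) in any comparison. Smad4, the deleted gene, did not pass between the genotypes in this edgeR model of all 14 libraries either. Its log2 fold change after DSS was -2.05 (SE 0.43, edgeR adjusted p = 0.21), without overlap of the libraries. On water, with all libraries, it was -0.95 (SE 0.36, edgeR adjusted p = 0.095). A member that did not pass is thus not shown to be unchanged. The model shares its estimate of the spread over all groups, including the library labelled Smad4 KO water replicate 1, where Smad4 was 158 CPM. In some of the other settings run, Smad4 did pass between the genotypes. Over all tested genes, 0.0132% passed for Smad4 KO against WT after DSS, 8.44% for Smad4 KO against WT on water, 0% for DSS against water in WT and 0.0661% for DSS against water in Smad4 KO. For the difference of the DSS responses of the 2 genotypes it was 0.00661%. At an unadjusted p below 0.05, the members numbered 1 of 9 after DSS (4.43% of all tested genes), 0 of 9 on water (29.3%), 3 of 9 for DSS in WT (21%), 2 of 9 for DSS in Smad4 KO (8.4%) and 1 of 9 for the difference of responses (7.5%). DESeq2 on all 14 libraries called 0 of 9 in each comparison, and of the genes it tested 0.351%, 19.9%, 6.82% and 0.524% in the first 4. DESeq2 restricted to the libraries compared called 1 member, Hes1 for DSS in WT, beside 3.5%, 6.46%, 13.6% and 0.47% of the genes it tested. The libraries of the 2 groups did not overlap for 2 of 9 members after DSS (21.7% of all tested genes), 0 on water (10.4%), 2 for DSS in WT (24.4%) and 1 for DSS in Smad4 KO (8.88%). The median log2 fold change of the members was 0.11, -0.04, 0.10 and 0.12 in the 4 comparisons, in the order above, beside 0.00, -0.01, -0.01 and -0.02 over all tested genes.

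**Figure D2:**
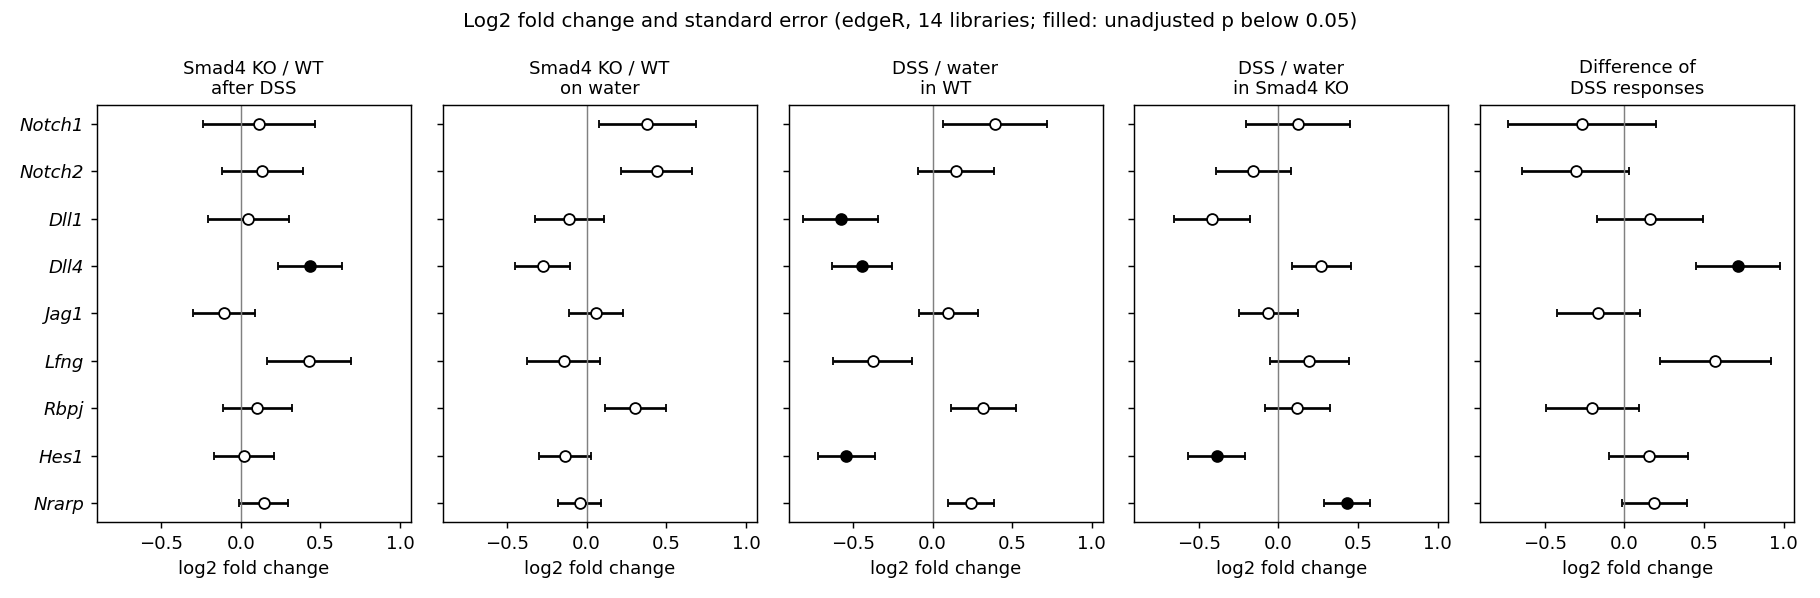
Log2 fold change (x axis) of the 9 tested members in 5 comparisons, with standard errors as bars, from edgeR on all 14 libraries; filled points have an unadjusted p below 0.05. Dll4 is filled after DSS (0.44), for DSS in WT (-0.44) and for the difference of responses (0.71), and no point passed the adjusted threshold.

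Among the ligands, Dll4 differed most between the genotypes after DSS, and none of the 3 passed the adjusted test. Dll4 (ENSMUSG00000027314, chr2:119151520-119161698, plus strand), a Delta-like ligand of the crypt base and also of endothelium, measured 15.4, 21.4 and 18.5 CPM in WT DSS and 24.3, 26.4 and 24.2 in Smad4 KO DSS. Every Smad4 KO DSS library was above every WT DSS library. Dll4 and Lfng were the 2 of 9 members with such a gap upward, and 10.4% of all tested genes had one.

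The Dll4 difference after DSS was 1.35-fold (log2 0.44, SE 0.20, unadjusted p = 0.045, edgeR adjusted p = 0.9994). On water, Dll4 was 21.7, 27.0, 21.7 and 30.2 CPM in WT and 24.8, 20.3, 15.1 and 22.8 in Smad4 KO. These groups overlapped (log2 fold change -0.28, SE 0.17, and -0.38, SE 0.19, without Smad4 KO water replicate 1), and the order of their means was opposite to that after DSS.

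In WT, all 3 DSS libraries were below all 4 water libraries for Dll4 (log2 fold change -0.44, SE 0.19, edgeR adjusted p = 0.20), whereas in Smad4 KO the groups overlapped (0.27, SE 0.19, and 0.37, SE 0.20, without replicate 1 of the water group). Non-overlap in the lower direction, found for Dll4 and Hes1, was present in 11.6% of all tested genes in WT. The direct test of the difference between the 2 DSS responses gave 0.71 on the log2 scale (SE 0.27, unadjusted p = 0.016, edgeR adjusted p = 0.64), and leaving out the library labelled Smad4 KO water replicate 1 gave 0.81 (adjusted p = 0.58). Both genotype and DSS comparisons of Dll4 use the WT DSS libraries, so their values are not independent. No Smad4 KO DSS library name opens with the same letters as a Smad4 KO water library name. Within Smad4 KO, these letters and DSS thus cannot be told apart for Dll4, and the difference of responses includes that comparison. A long noncoding gene on the opposite strand, Gm14207, overlaps Dll4 with 31.6% as many counts, and no strand setting is stated for the counting. Gm14207 itself had log2 fold changes of -0.04 (SE 0.38) after DSS and -1.03 (SE 0.37, adjusted p = 0.15, edgeR) for DSS in WT.

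Dll1 (ENSMUSG00000014773, chr17:15504318-15513836, minus strand), the other Delta-like ligand of the crypt, was lower on average after DSS in both genotypes, and neither difference passed the adjusted test. It measured 16.7, 22.8, 25.7 and 13.9 CPM in WT water and 11.4, 15.3 and 13.1 in WT DSS. In Smad4 KO it measured 25.0, 17.6, 12.7 and 18.1 on water and 13.8, 14.3 and 13.2 after DSS. The water libraries spread widely and overlapped the DSS libraries in each genotype. The log2 fold change with DSS was -0.58 (SE 0.24, edgeR adjusted p = 0.19) in WT and -0.42 (SE 0.24, adjusted p = 0.68) in Smad4 KO, where it was -0.23 (SE 0.23) without water replicate 1. After DSS the genotypes lay close together, at a mean of 13.3 ± 1.94 CPM in WT and 13.7 ± 0.542 in Smad4 KO (SD, n = 3 each). An opposite-strand gene, A930024N18Rik, overlaps Dll1 with 12% as many counts.

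Jag1 (ENSMUSG00000027276, chr2:136907192-136942380, minus strand), the Jagged-type ligand, had group means close to each other. They were 19.8 ± 1.51 in WT water and 20.6 ± 3.28 CPM in Smad4 KO water (SD, n = 4 each), and 21.2 ± 5.36 in WT DSS and 19.7 ± 1.93 in Smad4 KO DSS (SD, n = 3 each). Its log2 fold changes were -0.10 to 0.10 in the 4 comparisons, each smaller than its SE of 0.17 to 0.20. Library values ran from 15.6 to 26.3 CPM, both extremes in WT DSS.

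The receptor Notch1 (ENSMUSG00000026923, chr2:26313423-26372183, minus strand) did not pass the adjusted test in any comparison, and its water libraries were widely spread. It measured 24.4, 18.7, 23.0 and 12.0 CPM in WT water and 35.6, 29.3, 28.3 and 9.04 in Smad4 KO water. After DSS it measured 26.2, 23.5 and 27.5 in WT and 28.4, 30.6 and 24.6 in Smad4 KO. The lowest values were in Smad4 KO water replicate 4 and WT water replicate 4, which are both among the libraries with a high mitochondrial share. Over the 3 such libraries Notch1 was 9.04 to 23.0 CPM, and over the other 11 it was 18.7 to 35.6.

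On water, Notch1 was 1.30-fold higher in Smad4 KO (log2 0.38, SE 0.31, edgeR adjusted p = 0.43). Without Smad4 KO water replicate 4 the difference was 0.67 (edgeR adjusted p = 0.020), and Notch1 then passed, as did 4107 of all 15127 tested genes. Without the 3 libraries of high mitochondrial share it was 0.53 (SE 0.16, edgeR adjusted p = 0.045), and Notch1 passed with 2369 of all tested genes. The highest Notch1 of all 14 was in the library labelled Smad4 KO water replicate 1, and leaving that out gave 0.18 (SE 0.32, adjusted p = 0.75). The part of mitochondrial share in the Notch1 level was not tested. After DSS, where all libraries had a low share, Notch1 differed by 0.11 (SE 0.35) between the genotypes.

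Notch2 (ENSMUSG00000027878, chr3:97817461-97954290, plus strand), the second receptor, was at 7.07, 6.74, 10.1 and 5.35 CPM in WT water and 10.9, 9.60, 10.6 and 8.61 in Smad4 KO water. It measured 8.14, 5.99 and 10.2 in WT DSS and 7.64, 10.3 and 8.73 in Smad4 KO DSS. WT water replicate 3 sat among the Smad4 KO water libraries and the other 3 WT water libraries below them. The log2 fold change on water was 0.44 (SE 0.22, edgeR adjusted p = 0.20), or 0.39 (SE 0.24) without Smad4 KO water replicate 1, and after DSS it was 0.14 (SE 0.25). With 50 to 258 raw counts in each library, Notch2 was the least deeply counted of the tested members.

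**Figure D3:**
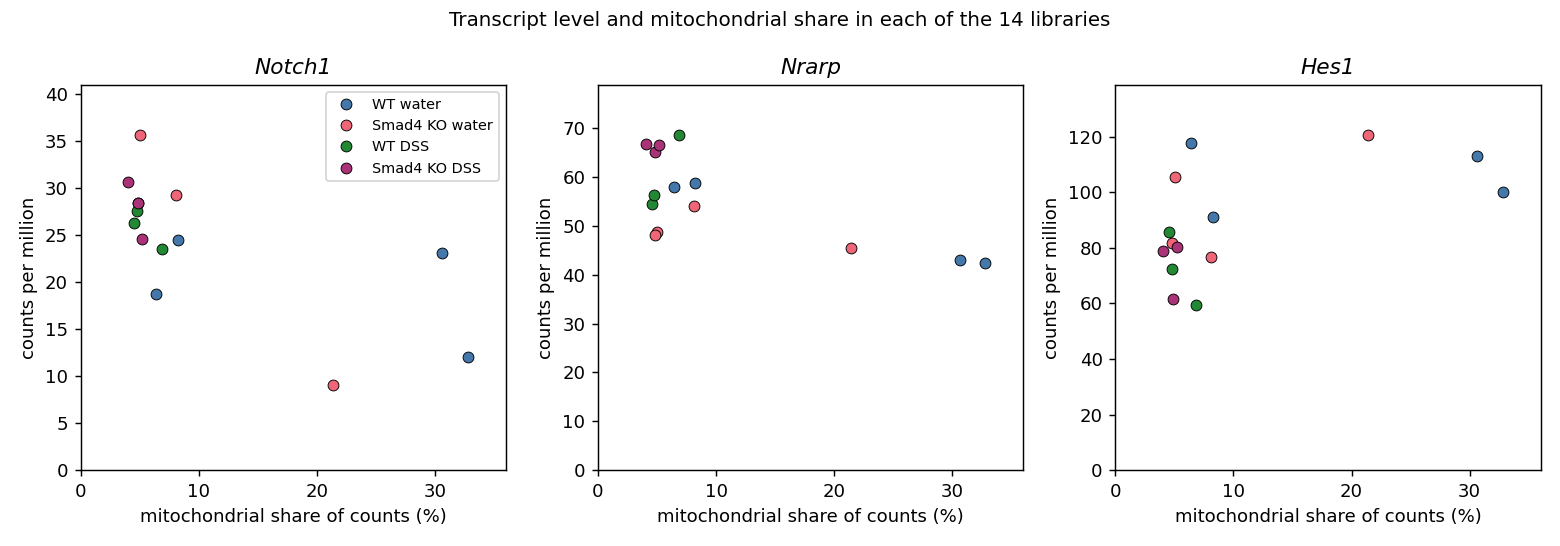
Level (y axis, CPM) of Notch1, Nrarp and Hes1 against the mitochondrial share of the counts (x axis, percent) in each of the 14 libraries, coloured by group. The 3 libraries with shares of 21.4 to 32.8% have Nrarp at 42.5 to 45.5 CPM, below the other 11 (48.1 to 68.5), and Hes1 at 100 to 120.5 CPM.

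The Fringe gene Lfng (ENSMUSG00000029570, chr5:141083295-141091497, plus strand) was, like Dll4, higher in every Smad4 KO DSS library than in every WT DSS library. It measured 14.1, 9.46 and 13.2 CPM in WT DSS and 16.3, 15.2 and 17.9 in Smad4 KO DSS, a 1.34-fold difference (log2 0.43, SE 0.26, unadjusted p = 0.13, edgeR adjusted p = 0.9994). On water it measured 18.3, 17.9, 16.9 and 10.3 in WT and 21.4, 12.6, 11.5 and 12.1 in Smad4 KO. The highest water value belonged to the library labelled Smad4 KO water replicate 1, and the other 3 of that group lay close together. The log2 fold change on water was -0.14 (SE 0.23) with all 4 and -0.40 (SE 0.21, edgeR adjusted p = 0.22) without that library. The difference of the DSS responses was 0.57 (SE 0.35, edgeR adjusted p = 0.69), and without that library it was 0.83 (SE 0.31, adjusted p = 0.58).

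In the DSS libraries in which Dll4 and Lfng did not overlap, several marker sums did not overlap either. The 7 fibroblast markers (5 of them past the count filter) summed to 0.368 to 2.23 CPM in WT DSS and 7.76 to 14.1 in Smad4 KO DSS. Col1a1, Col1a2, Col3a1, Col6a1 and Dcn were higher in every Smad4 KO DSS library, while Pdgfra and Lum overlapped near 0. Raw counts of Pdgfra were 0, 1 and 0 in WT DSS and 0, 0 and 8 in Smad4 KO DSS. From low Pdgfra, the study concluded that pericryptal fibroblasts did not contaminate its epithelial RNA, and it described the collagen transcripts as epithelial. The 4 crypt-base markers (Lgr5, Ascl2, Smoc2 and Axin2) summed to 44.6 to 77.5 in WT DSS and 110 to 120 in Smad4 KO DSS, with Lgr5 and Smoc2 higher and Ascl2 lower in every Smad4 KO DSS library. The 7 goblet markers summed to 17050 to 17920 in WT DSS and 13280 to 13740 in Smad4 KO DSS, but they did not all move together. Tff3, Clca1, Fcgbp and Zg16 were lower in every Smad4 KO DSS library, while Muc2, Spink4 and Agr2 overlapped. Agr2 was at 1332 to 1535 CPM in WT DSS and 1464 to 2263 in Smad4 KO DSS. Endothelial sums overlapped, at 5.79 to 8.04 in WT DSS and 6.33 to 7.56 in Smad4 KO DSS, with Kdr also at 0 in both groups. The part of the fibroblast, crypt-base and goblet markers in the 2 results was not tested.

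Rbpj (ENSMUSG00000039191, chr5:53947018-54048684, plus strand), the DNA-binding partner of cleaved Notch, measured 19.9, 19.3, 23.8 and 17.0 CPM in WT water and 29.0, 31.6, 15.3 and 23.2 in Smad4 KO water. It measured 23.4, 25.0 and 26.5 in WT DSS and 24.4, 27.8 and 28.3 in Smad4 KO DSS. The 4 Smad4 KO water libraries held both the highest and the lowest Rbpj of the study. Its log2 fold changes were 0.31 (SE 0.19) for genotype on water, 0.11 (SE 0.22) for genotype after DSS, 0.32 (SE 0.20) for DSS in WT and 0.12 (SE 0.20) for DSS in Smad4 KO, and none passed the edgeR test. Without Smad4 KO water replicate 1 they were 0.22 (SE 0.21) for genotype on water and 0.20 (SE 0.22) for DSS in Smad4 KO.

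Of the targets, Hes1 (ENSMUSG00000022528, chr16:30064470-30067882, plus strand), a repressor that holds down Atoh1 and the promoter of which carries 2 of the core sequences shown above, was lower on average after DSS in WT without passing the adjusted edgeR test. It measured 91.0, 118, 113 and 100 CPM in WT water and 85.6, 59.6 and 72.4 in WT DSS. Each DSS library was below each water library, with the highest DSS value (85.6) close to the lowest water value (91.0). The sums of the 4 crypt-base markers (Lgr5, Ascl2, Smoc2 and Axin2) also did not overlap, at 102 to 144 CPM in WT water and 44.6 to 77.5 in WT DSS. Axin2 taken singly did overlap, at 31.2 CPM in WT water replicate 4 and 32.1 in WT DSS replicate 3. The part of these markers in the Hes1 and Dll4 values was not tested.

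The log2 fold change of Hes1 with DSS in WT was -0.54 (SE 0.18, unadjusted p = 0.0082, edgeR adjusted p = 0.14), a 0.688-fold level. Of the settings run, it passed with DESeq2 on the 7 libraries compared (adjusted p = 0.022) and in no other. In Smad4 KO, Hes1 measured 106, 76.7, 81.9 and 120.5 CPM on water and 61.5, 78.8 and 80.2 after DSS. The groups overlapped (log2 fold change -0.39, SE 0.18, edgeR adjusted p = 0.57), and dropping the library labelled Smad4 KO water replicate 1 gave -0.34 (SE 0.19, adjusted p = 0.65).

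The DSS responses of Hes1 in the 2 genotypes were not distinguished, with a difference of 0.15 (SE 0.25, edgeR adjusted p = 0.87). Between genotypes, the log2 fold change of Hes1 was -0.13 (SE 0.16) on water (-0.18, SE 0.18, without Smad4 KO water replicate 1) and 0.02 (SE 0.19) after DSS. Hes1 was 100 to 120.5 CPM in the 3 libraries of high mitochondrial share. Without them, the change with DSS was -0.51 (SE 0.19, unadjusted p = 0.018, edgeR adjusted p = 0.25) in WT and -0.25 (SE 0.17, adjusted p = 0.50) in Smad4 KO.

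Nrarp (ENSMUSG00000078202, chr2:25036278-25038850, plus strand), a Notch-induced protein that damps the pathway, was higher on average after DSS in both genotypes, and neither difference passed the adjusted test. It measured 48.8, 54.0, 48.1 and 45.5 CPM in Smad4 KO water and 65.0, 66.8 and 66.5 in Smad4 KO DSS. The DSS libraries were all higher and lay close together (66.1 ± 0.940 CPM, SD, n = 3). This was the 1 member of 9 without overlap between DSS and water in Smad4 KO, and 4.6% of all tested genes did not overlap in that direction. Crypt-base marker sums did not overlap between these groups either, at 138 to 159 CPM on water and 110 to 120 after DSS, though Ascl2 and Smoc2 taken singly did overlap. The part of these markers in the Nrarp values was not tested.

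The difference in Nrarp was 1.35-fold (log2 0.43, SE 0.14, unadjusted p = 0.0085, edgeR adjusted p = 0.47). Dropping the library labelled Smad4 KO water replicate 1 again gave 0.43 (SE 0.16, adjusted p = 0.51). In WT, Nrarp measured 58.7, 57.9, 42.9 and 42.5 on water and 54.5, 68.5 and 56.2 after DSS, with overlap (log2 fold change 0.24, SE 0.14). The genotypes differed by -0.04 (SE 0.13) on water, also -0.04 (SE 0.15) without Smad4 KO water replicate 1, and by 0.15 (SE 0.15) after DSS.

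The 3 libraries of high mitochondrial share had the lowest Nrarp of all 14, at 42.5 to 45.5 CPM. Without them the change with DSS in Smad4 KO was 0.40 (SE 0.11, edgeR adjusted p = 0.13). The library names open with different letters, whose meaning is not stated, and no Smad4 KO water library shares its letters with a Smad4 KO DSS library. With those letters as a block, the Nrarp difference was -0.01 (SE 0.18, adjusted p = 0.99). Within Smad4 KO alone, the name letters and DSS cannot be told apart for any gene, and the differences of the DSS responses include that comparison.

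Hes1 and Nrarp, both known targets, ran in opposite directions across the libraries, with a Pearson correlation of their log2 CPM of -0.699 over the 14. That was the lowest value of the 36 member pairs, and the highest was 0.632, between Dll1 and Hes1. These correlations run over libraries that share groups, depth and mitochondrial share and are a description. By the same measure, the genes most like Hes1 were Aplp1 (0.848), Efna1 (0.835) and Cd200 (0.833), and those most like Nrarp were Kctd5 (0.896), Snx11 (0.888) and snoZ40 (0.886). For Dll4 they were Nudt8 (0.821), Wrb (0.815) and Hes6 (0.788), the last a member of the Hes family.

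Closest to Notch1 were Zfp609 (0.941) and Vgll4 (0.936), and closest to Notch2 were Atf7 (0.902), Lphn2 (0.891) and Lrrc17 (0.859). Lfng was most like Gm10819 (0.868), Hopx (0.856) and Cdca7 (0.854), and Rbpj most like Cnst (0.831), Pi4k2b (0.820) and Eif3j (0.815). For Dll1 the nearest were Armc9 (0.826), Anxa6 (0.805) and BC057022 (0.795), and for Jag1 they were Atf3 (0.839), Usp42 (0.760) and Ap1s2 (0.745). All values are Pearson r of log2 CPM over the 14 libraries.

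Another 49 genes of the pathway were listed by role, with 8 transcription factors of the secretory lineage that active Notch keeps down. Of these 57 genes, 53 passed the count filter. On water, 3 of the 53 passed the edgeR test between Smad4 KO and WT, beside 8.44% of all tested genes. Adam10 and Itch rose in Smad4 KO and Jag2 fell, where 4.83% of all tested genes passed as higher and 3.6% as lower. Each had no overlap between the groups. Of the 53, 3 did not overlap as higher and 2 as lower, beside 10.4% of all tested genes in either direction. In the other 4 comparisons none of the 53 passed in edgeR, and at an unadjusted p below 0.05 they numbered 2 after DSS (4.43% of all tested genes), 10 for DSS in WT (21%), 0 for DSS in Smad4 KO (8.4%) and 4 for the difference of responses (7.5%). DESeq2 on all libraries called 2 of the 53 for DSS in WT, beside 6.82% of the genes it tested, and none in those other comparisons. Restricted to the libraries compared, it called 3 after DSS (3.5% of the genes it tested) and 8 for DSS in WT (13.6%).

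**Figure D4:**
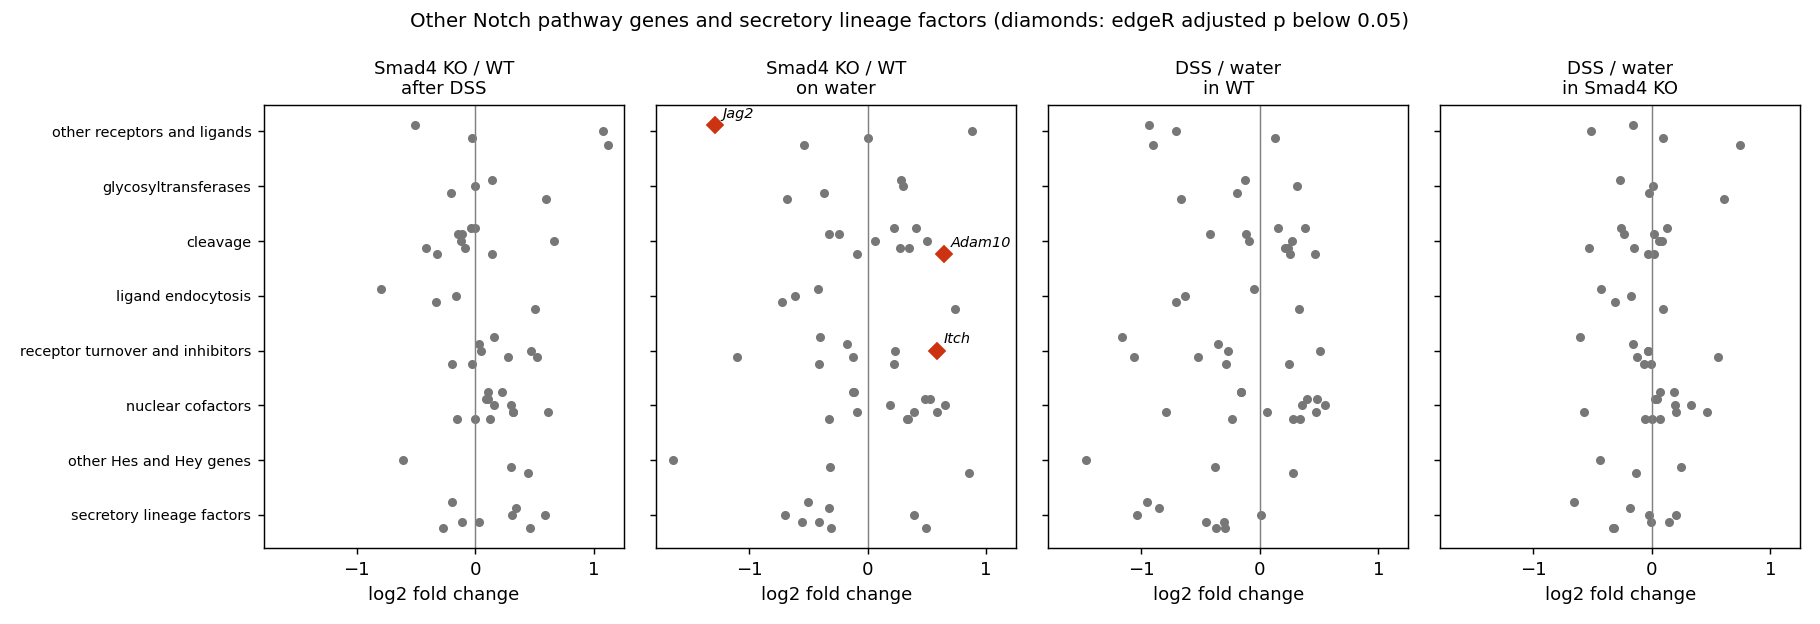
Log2 fold change (x axis) of the 53 other tested pathway genes and secretory lineage factors, grouped by role (y axis), in 4 comparisons; each point is 1 gene and red diamonds passed the edgeR test. The 3 diamonds are all on water, with Adam10 at 0.65, Itch at 0.58 and Jag2 at -1.29.

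Adam10, the protease that makes the first ligand-induced cut in the receptor, measured 105, 127, 95.5 and 91.8 CPM in WT water and 143.5, 178, 196.5 and 137 in Smad4 KO water (log2 fold change 0.65, SE 0.14, edgeR adjusted p = 0.024). Itch, a ubiquitin ligase that turns over Notch, measured 57.1, 63.4, 59.2 and 45.4 in WT water and 84.7, 95.4, 93.5 and 64.6 in Smad4 KO water (0.58, SE 0.14, adjusted p = 0.031). Jag2, the other Jagged ligand, measured 4.85, 2.93, 5.78 and 3.31 in WT water and 2.51, 1.01, 1.27 and 2.08 in Smad4 KO water (-1.29, SE 0.36, adjusted p = 0.042).

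With the library labelled Smad4 KO water replicate 1 left out, all 3 passed again, with log2 fold changes of 0.70, 0.58 and -1.53. In edgeR on the 8 water libraries alone none of the 3 passed (adjusted p = 0.16 each). The base composition of the 3 genes differs, with 41.5% and 41.1% GC in the exons of Adam10 and Itch and 61.3% in Jag2. With trends on GC content and exon length removed from each library, the values were 0.26, 0.08 and -0.91 and none passed (adjusted p = 0.18, 0.67 and 0.14).

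By role, on water and with all libraries, the nuclear cofactors had 6 of 12 at an unadjusted edgeR p below 0.05, 5 of them higher in Smad4 KO. The 5 were the coactivator Maml3, the acetyltransferases Ep300 and Kat2b, Snw1, and the corepressor Ncor1. The corepressor Ctbp1 was lower. The proteases and gamma-secretase subunits had 3 of 10, all higher, of which only Adam10 passed the adjusted test. The endocytosis ligases, which act in the ligand-bearing cell, were split between Mib1 (0.74, SE 0.23, edgeR adjusted p = 0.052) and Mib2 (-0.72, SE 0.23, adjusted p = 0.058). Hes2 was at 0.85 (SE 0.31, adjusted p = 0.083). Leaving out the library labelled Smad4 KO water replicate 1 gave 0.78 for Mib1, -0.73 for Mib2 and 0.91 for Hes2 (edgeR adjusted p = 0.062, 0.086 and 0.094). Mib1, Mib2, Hes2 and the nuclear cofactors did not pass the adjusted test, and 29.3% of all tested genes were below the same unadjusted threshold.

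After DSS, Neurl1b, another ligase of the Neuralized type, measured 33.8, 30.5 and 39.2 CPM in WT and 15.5, 25.0 and 19.0 in Smad4 KO. The groups did not overlap, as in 21.7% of all tested genes (log2 fold change -0.80, SE 0.25, unadjusted p = 0.0060), and the edgeR adjusted p was 0.71. Mib1 measured 67.1, 71.0 and 78.7 in WT DSS and 109, 102 and 95.5 in Smad4 KO DSS (0.50, SE 0.26, adjusted p = 0.9994). These are the 2 genes, with Dtx4, that DESeq2 on the 6 DSS libraries called (adjusted p = 0.0013 for Neurl1b, 0.0019 for Mib1 and 0.021 for Dtx4), where it called 3.5% of the genes it tested. Jag2 was at -0.51 (SE 0.42) and Bhlha15, a secretory cell factor, at 0.59 (SE 0.46).

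For DSS in WT, the gene of the lists with the lowest log2 fold change among those with a mean of 50 or more normalized counts was Spdef, a goblet cell factor, at -1.03 (SE 0.31, edgeR adjusted p = 0.12). Spdef measured 257, 94.3, 189 and 303.5 CPM in WT water and 99.9, 107 and 103 in WT DSS, so that WT water replicate 2 lay below the DSS libraries. Itch was at 0.50 (SE 0.15) and Maml3 at 0.55 (SE 0.21), and Jag2 at -0.93 (SE 0.39). The 8 secretory factors had 7 negative values in WT with a median of -0.41, and 6 negative values in Smad4 KO with a median of -0.11, beside medians of -0.01 and -0.02 over all tested genes. None passed the edgeR test in either.

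In Smad4 KO, the 2 lowest and 2 highest values with DSS among listed genes with a mean of 50 or more normalized counts were Aph1b at -0.53 (SE 0.29), Neurl1b at -0.43 (SE 0.24), Spen at 0.33 (SE 0.18) and Hdac1 at 0.47 (SE 0.36). Without water replicate 1 these were -0.49, -0.34, 0.32 and 0.47. The difference of the DSS responses was 1.00 for Spdef (SE 0.43, edgeR adjusted p = 0.64), 0.78 for Jag2 (SE 0.55), -0.76 for Aph1b (SE 0.41) and -0.54 for Itch (SE 0.21). Without that library these were 0.96 for Spdef, 1.02 for Jag2, -0.73 for Aph1b and -0.54 for Itch, and none passed. Atoh1, the switch of the secretory fate, measured 81.0, 76.2 and 92.3 CPM in WT DSS and 60.2, 76.3 and 69.8 in Smad4 KO DSS, with overlap between WT DSS replicate 2 and Smad4 KO DSS replicate 2.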

How the data were processed

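RNA from EDTA-isolated colon epithelium was sequenced as poly(A)-enriched libraries (4 WT water, 4 Smad4 KO water, 3 WT DSS, 3 Smad4 KO DSS). The authors aligned paired reads to mm9 with HISAT2 and deposited whole-number gene counts from featureCounts, not normalized; the counting strand is not given in the sources used here. Groups came from the sample titles. Counts of 37680 genes were tested with edgeR 4.0.16 in R 4.3.3 (quasi-likelihood test, TMM, all 14 libraries in 1 model with 1 coefficient per group, a minimum of 10 counts in 3 or more libraries, Benjamini-Hochberg over 15127 genes, threshold 0.05). The standard error is the log2 fold change over the square root of F. DESeq2 1.42.0, as the study used for pairwise comparisons, and other normalization, filter and sample choices were alternatives. Tests were checked on simulated counts. Exon length, GC content and positions came from GENCODE M1 on NCBIM37, the build of the files, and matched 37310 genes. Promoter windows started at the protein-coding transcript numbered 001. Levels set across genes are per kilobase of exon. Depth was 12882827 to 26087231 counts per library, which limits transcripts of few counts such as Hey1.

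The members and lists were chosen with earlier results of these data known. Named were the 10 members, Smad4, listed pathway genes that passed, the 2 highest and 2 lowest per comparison among those with a mean of at least 50 normalized counts, the 3 genes most correlated with each member (1 is not reported here), and marker genes. Genes such as Dtx4, Atoh1, Ep300, Gm14207 and A930024N18Rik were named after their values were seen. Marker lists for immune, smooth muscle, enteroendocrine and dividing cells were summed as well. No 2 libraries of a group agreed within sampling noise.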

Additional observations from a re-analysis of the deposited data

Results flagged for a closer look

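Lfng in the Smad4 KO water group was flagged because 1 library stood far from the others. The library labelled Smad4 KO water replicate 1 had 21.4 CPM and the other 3 had 11.5, 12.1 and 12.6 CPM, a gap of 0.889 of the range of the group (Dixon critical value 0.829 for 4 samples). Chance flags about 1 in 20 groups. This library also has Smad4 at 158 CPM, within the WT range, and the part of that in its Lfng level was not tested.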

How the results depend on the processing

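No member passed the edgeR test in the 5 comparisons in any setting run except Notch1 on water, which made 1 member called without the libraries of high mitochondrial share (chosen after seeing the data, like the removal of GC and length trends) and in 1 leave-one-out fit, without Smad4 KO water replicate 4, and Hes1 for DSS in WT, the 1 member called by DESeq2 on 2 groups. In the Notch1 fits, 2369 and 4107 of all 15127 tested genes passed, in that order, and DESeq2 on 2 groups called 13.6% of the genes it tested. Leaving out each library in turn gave 0 to 1 members on water and 0 elsewhere.

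Counts of all called genes moved widely. After DSS (2 genes) the count was 113 with the 2 groups alone, 51 and 499 with DESeq2 on all libraries and on 2 groups, 7 without the count filter, 1 with the name-letter block and 5 without the libraries of high mitochondrial share. On water (1276) it was 1, 2659 and 768 in the first 3 of these, 2977 with the replicate block, 2018 with name letters, 36 with GC and length trends removed and 2369 without high mitochondrial share. For DSS in WT (0) it was 851 and 1777 with DESeq2, 138 without the filter, 2 with name letters and 35 without high mitochondrial share. For DSS in Smad4 KO (10) it was 1 with 2 groups, 70 and 71 with DESeq2, 6 with the replicate block, 1 with name letters, 6 with trends removed and 26 without high mitochondrial share. For the difference of responses (1) it was 8, 2 and 30 with DESeq2, no filter and without high mitochondrial share. With 1 library left out, these counts ran from 0 (WT DSS replicate 1) to 8 (the library labelled Smad4 KO water replicate 1) after DSS, 4 (WT water replicate 4) to 4107 (Smad4 KO water replicate 4) on water (13 with 2 groups and no library labelled Smad4 KO water replicate 1), 0 to 529 and 3 to 11 for DSS in WT and Smad4 KO, and 1 to 5 for the difference. The cause was not tested.

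The 53 other genes had 3 calls on water in edgeR, 0 with 2 groups or with trends removed, 10 with DESeq2 on all libraries and with the replicate block, 5 without the filter, 6 with name letters, 12 without high mitochondrial share and 0 to 17 with 1 library left out. Of all tested genes, edgeR called 8.44% on water and DESeq2 on all libraries 19.9%. Of all 15127 genes, 2977 passed with the replicate block, 2018 with name letters and 2369 without high mitochondrial share. With 1 library left out, 4 to 4107 of them passed. Without the filter, 1404 genes passed. In WT with DSS the 53 genes had 2 and 8 calls with DESeq2, beside 6.82% and 13.6% of the genes it tested. They had 0 to 1 with 1 library left out, where 0 to 529 of all tested genes passed. After DSS they had 3 with DESeq2 on 2 groups, beside 3.5% of the genes it tested.

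No member value that turned direction had passed the test. On water, trend removal gave Dll1 0.11, Jag1 -0.10, Lfng 0.28, Hes1 0.06 and Nrarp 0.24, and name letters gave Jag1 -0.01, Lfng 0.10 and Nrarp 0.19. For DSS in WT, trend removal gave Jag1 -0.02. For DSS in Smad4 KO, name letters gave Notch2 0.08, Jag1 0.03, Lfng -0.24 and Nrarp -0.01 (0.43 without the block), and Notch1 was -0.05 with the replicate block and -0.15 without high mitochondrial share. For the difference of responses, name letters gave Notch1 0.03, Notch2 0.05 and Nrarp -0.09, and trend removal gave Rbpj 0.03 and Nrarp -0.02.

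With 1 library left out, values that turned ran, after DSS, from -0.04 to 0.33 (Notch2), -0.05 to 0.16 (Dll1), -0.28 to 0.08 (Jag1) and -0.10 to 0.16 (Hes1), and on water from -0.30 to 0.05 (Dll1), -0.02 to 0.16 (Jag1) and -0.12 to 0.04 (Nrarp). For DSS in WT they ran from -0.05 to 0.35 (Notch2) and -0.09 to 0.28 (Jag1), for DSS in Smad4 KO from -0.16 to 0.34 (Notch1), -0.16 to 0.02 (Jag1) and -0.06 to 0.26 (Rbpj), and for the difference from -0.34 to 0.02 (Jag1).

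Replicate numbers did not pair the libraries: over 19 same-numbered pairs the correlation of deviations was -0.081 to 0.348, above 0.1 in 2, and 3 of 14 libraries correlated best with their own number. The replicate block changed no call of a member.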

Other observations

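Markers of further cell types gave these sums per library. The 8 immune markers summed to 7.17 to 22.2 CPM in WT water, 17.8 to 26.2 in Smad4 KO water, 17.7 to 25.9 in WT DSS and 20.3 to 21.2 in Smad4 KO DSS. The 9 pericyte and smooth muscle markers, a cell type in which Notch3 is known to act, summed to 19.3 to 30.3 CPM over all groups, while Notch3 itself was at or below 1.04 CPM in every library. Most of that sum was Tagln (10.9 to 19.5 CPM) and Pdgfrb (5.78 to 10.6 CPM), and Rgs5 had at most 3 raw counts. Tagln overlaps Pcsk7, a protein-coding gene on the opposite strand, and the counting strand is not given. Enteroendocrine markers (Chga, Pyy and others) summed to 210 to 389 CPM and markers of dividing cells to 421 to 826 CPM, with overlap among all 4 groups in both.

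Notch4, which is known from endothelium, measured 14.3 to 26.1 CPM across the libraries. Of the 10 endothelial markers, Tie1, Emcn and Cldn5 were at 0 in all 14 libraries, while Vwf was at 3.10 to 10.1 CPM and Pecam1 at 0.203 to 0.666 CPM, and the part of endothelium in the Notch4 level was not tested. Dll3 was at or below 0.591 CPM.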
